A study of Mus musculus with 4 samples.

Results

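The region described here is the stretch of mouse chromosome 8 from 79 to 99 Mb of the mm9 assembly, as occupied by LSD1 in differentiating C2C12 cells. Its members were all LSD1 ChIP-seq peaks with a midpoint in the stretch. They numbered 538 of the 44039 peaks of day 2 and 329 of the 17446 peaks of day 5, or 867 of 61485 in all. C2C12 is an established mouse myoblast line. Cells were grown in 10% fetal serum and 25 mM glucose, and differentiation was started by a change to 2% horse serum at the same glucose concentration. LSD1 was precipitated with a polyclonal antibody after 48 h (day 2, labelled differentiating) and after 120 h (day 5, labelled differentiated). An input library accompanied each precipitate, making 4 libraries with 1 per group. The inputs, the read totals and the cells' markers were not analysed here.

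LSD1, encoded by Kdm1a, is a demethylase that acts on methylated lysines of histone H3. It works in complexes with CoREST and histone deacetylases, which are recruited to promoters and enhancers by transcription factors. In muscle cells it is known for a part in the switch to the myogenic programme and in the setting of oxidative metabolism. A peak in ChIP-seq is an interval where precipitated fragments pile up above the background. Its width is the length of that interval, and its score is the peak caller's own measure, deposited by the authors and used here within a list, where 50 was the lowest value in either list.

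The stretch was chosen by the measured overlap of its day 2 peaks with day 5 peaks, which was above that of most regions, so the shares below describe the choice and were not tested. With 1 library per day there is no spread between replicates to compare a difference with, and p-values are not reported. Intervals are 95% Wilson intervals for shares and order-statistic intervals for medians. They cover counting error and treat peaks as independent, which neighbours are not. The peak lists use mm9, of which no gene annotation or sequence was used here, so loci are named by position and no sequence is shown.

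Peaks of the 2 days were called shared where they overlapped by at least 1 bp. In the stretch, 243 of 538 day 2 peaks (45.2%, 41.0 to 49.4) had a day 5 peak, where the background over the whole list was 30.4%. The share was 28.5% (26.4 to 30.6) in the rest of chromosome 8 and 30.5% on the other autosomes. On chromosome 15 from 71 to 91 Mb, a stretch with a like share, it was 41.3% (38.2 to 44.6), an interval that overlapped that of chromosome 8. In the other direction, 289 of 329 day 5 peaks (87.8%, 83.9 to 90.9) had a day 2 peak, close to the background of 86.1%. The shares depended on the rule: with 50% of each peak required to overlap they were 21.6% and 35.3%, and with the day 2 list limited by score to the length of the day 5 list they were 74.9% and 66.6%. Under that limit the rest of chromosome 8 had 54.0% and 66.2%. There were 1.64 day 2 peaks for each day 5 peak in the stretch and 2.55 in the rest of the chromosome.

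At its upstream border the stretch began where called peaks were sparse. The last peak before it at day 2 spanned 77632900 to 77633410 (score 76.1), and the first within it 79422726 to 79423247 (score 110), which was shared with day 5. At the downstream border the last peak of both days stood at the same place, at 98410903 to 98412719 on day 2 (score 471) and 98411106 to 98412614 on day 5 (score 374). After it came 6.90 Mb without a peak on either day, and the next peak, at 105308743 to 105309096 on day 2, scored 58.8. Inside the stretch the longest intervals without a peak were 91348155 to 92645570 (1.30 Mb), 83539714 to 84377035 (0.837 Mb), 92646366 to 93319006 (0.673 Mb) and 95565564 to 96208141 (0.643 Mb).

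Peaks were gathered in a few places. The 3 fullest megabases, 86 to 87, 87 to 88 and 97 to 98 Mb, held 69, 74 and 75 day 2 peaks and 63, 44 and 41 day 5 peaks. Together these were 40.5% of the day 2 peaks and 45% of the day 5 peaks of the stretch. The megabase from 92 to 93 Mb held a single day 2 peak and none at day 5. In each of the 19 other megabases, with at least 10 day 2 peaks each, the share with a day 5 peak lay between 24.0% (94 to 95 Mb) and 59.4% (86 to 87 Mb). It was above the whole list's share in 18 of these 19, but the stretch was chosen by this overlap, so such an excess describes the choice. Shares of single megabases were also loose: that of 79 to 80 Mb, 40% of 10 peaks, had an interval of 16.8 to 68.7%.

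**Figure D1:**
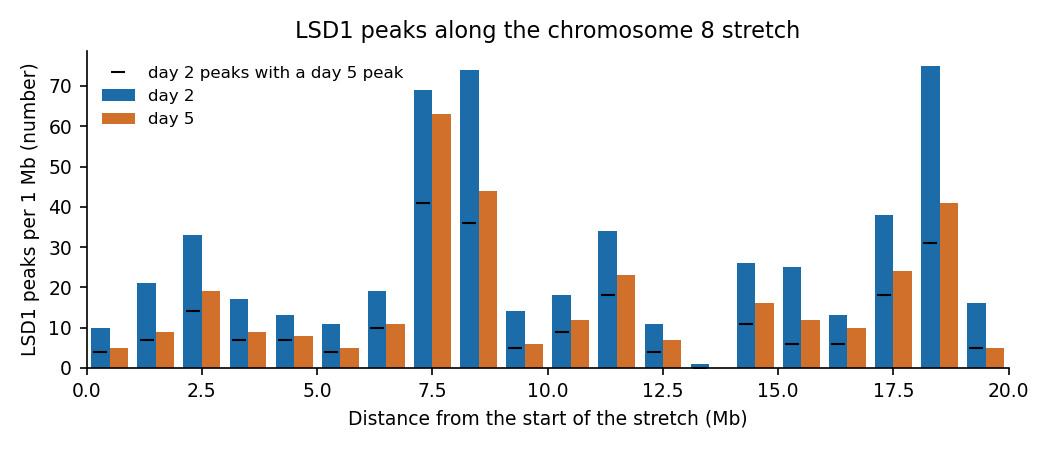
Number of LSD1 peaks in each 1 Mb bin (bars, day 2 and day 5) against distance from the start of the stretch, with a dash at the number of day 2 peaks that had a day 5 peak. The tallest pairs of bars are the megabases from 86 to 88 Mb and from 97 to 98 Mb; in the bin from 86 to 87 Mb day 5 reached 63 peaks against 69.

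At the scale of single loci, peaks of both days were joined wherever the gap between them was at most 10 kb. This gave 281 loci with a median span of 1571 bp (quartiles 731 to 6321 bp), the longest being 61031 bp. Both days were present in 166 loci (59.1%, where the background over all 25104 loci of the genome was 42.4%). Day 2 was alone in 107 (38.1%, background 54.0%) and day 5 alone in 8 (2.85%, background 3.61%). The loci of day 2 alone were small and held at most 3 peaks, and each of the 8 loci of day 5 alone was a single peak. In 33 loci (11.7%, background 3.51%) day 5 had more peaks than day 2, with at least 1 of each. At least 10 peaks lay in 9 loci (3.2%, background 2.13%).

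The broadest day 2 peak of the stretch spanned 86724278 to 86729006, a width of 4729 bp, with a score of 1226 (place 84 of the day 2 list). At day 5 this interval held 3 separate peaks. They spanned 86724718 to 86725550 (833 bp, score 150), 86726148 to 86726777 (630 bp, score 225) and 86727182 to 86727791 (610 bp, score 82.4), parted by gaps of 597 and 404 bp. The day 5 peaks covered 2073 bp, or 43.8% of the day 2 peak, and lay to its left, leaving 440 bp uncovered at the start and 1215 bp at the end.

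Around it lay a locus of 28261 bp, from 86706521 to 86734781, with 9 day 2 peaks and 11 day 5 peaks. The peak next in strength spanned 86715219 to 86717781 at day 2 (2563 bp, score 985) and 86715685 to 86717000 at day 5 (1316 bp, score 450). In the day 5 list this neighbour, at place 61, outscored each of the 3 fragments of the broad peak, the best of which held place 666. In the day 2 list the order was the opposite, with places 84 and 185. A further 3 day 2 peaks in this locus also held 2 day 5 peaks each, namely 86706521 to 86708343 (score 289), 86710226 to 86711802 (score 328) and 86720971 to 86722740 (score 550). All 11 day 5 peaks of the locus overlapped a day 2 peak (background 86.1%), and 3 of its 9 day 2 peaks had no counterpart (background 69.6%).

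**Figure D2:**
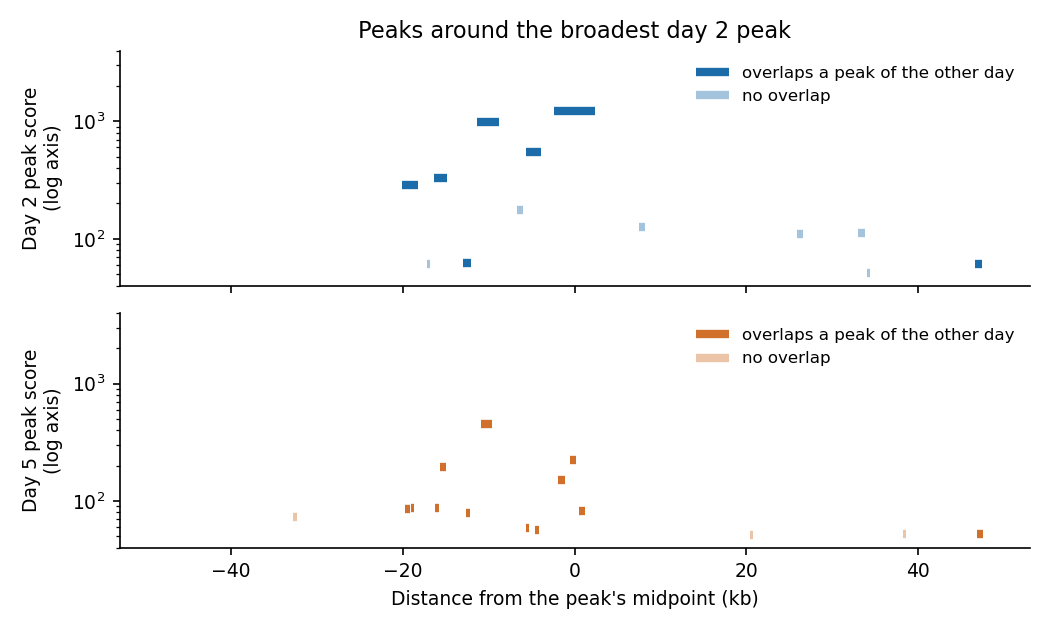
Peaks within 50 kb of the broad peak, drawn to scale by distance from its midpoint, with the peak score on a log axis, for day 2 (13 peaks) and day 5 (15 peaks); pale bars had no overlap. The broad bar at the centre of day 2 stands over 3 short day 5 bars, and the strongest day 5 bar is its neighbour to the left.

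The strongest site of the stretch was a single peak on each day, wider than the stretch's median widths of 812 bp at day 2 and 469 bp at day 5. At day 2 it spanned 89995856 to 89997561 (1706 bp, score 3100) and at day 5 89996299 to 89997428 (1130 bp, score 2201), at place 2 in each list. The score of 3100 was the maximum of the day 2 list and was held by 3 peaks, so their order was set by width, and a ceiling of the score was not tested. No other member came close: the next score was 1337 at day 2 and 681 at day 5. It was flanked on the right by a weak peak shared by both days, at 89997626 to 89998218 on day 2 (score 89.0) and 89997635 to 89998098 on day 5 (score 84.9). On the left a weak peak at 89994573 to 89995053 (score 74.1) was present at day 2 alone.

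About 20 kb downstream of it began a separate locus at 90018292 to 90038481 with 5 day 2 and 4 day 5 peaks. Its best day 5 peak, 90018319 to 90019040, scored 207, and its partner 90018292 to 90019059 scored 185 at day 2. The highest-scoring day 2 peak of that locus, 90037400 to 90038481 (score 332), was the one with no day 5 peak, which lay 6022 bp away at the nearest. Within 50 kb of the strongest site, all 6 day 5 peaks overlapped a day 2 peak and 2 of 8 day 2 peaks stood alone. Over the whole lists 86.1% of day 5 peaks were shared and 69.6% of day 2 peaks stood alone.

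**Figure D3:**
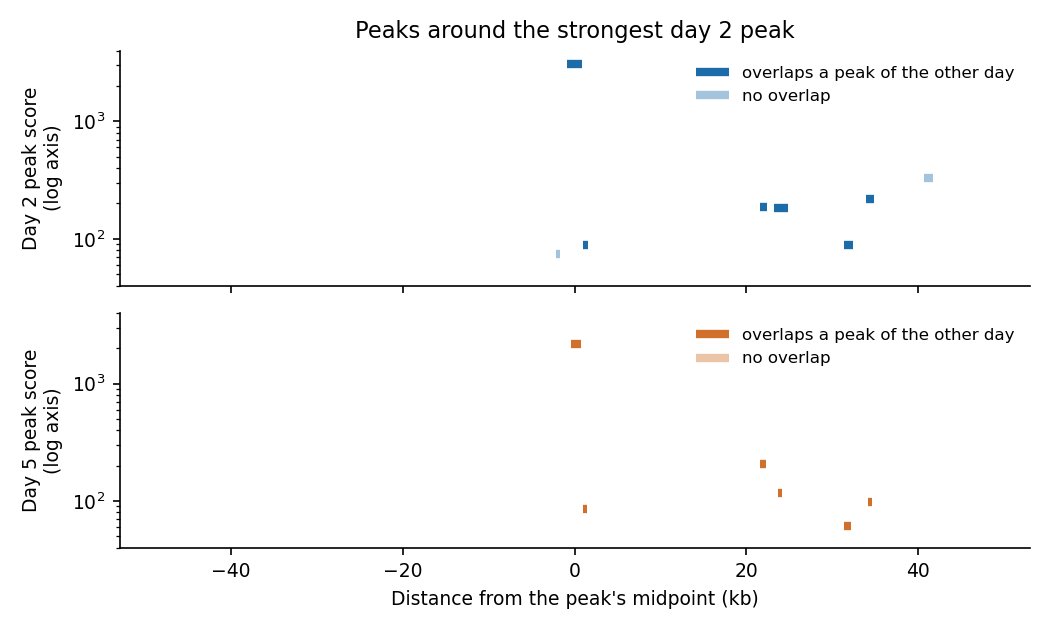
Peaks within 50 kb of the strongest site, by distance from its midpoint in kb, with the peak score on a log axis, for day 2 (8 peaks) and day 5 (6 peaks). The site itself, at scores of 3100 and 2201, stands far above its neighbours, of which none exceeded 332 at day 2 or 207 at day 5.

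The other strong sites were present on both days. The 10 highest-scoring peaks of the stretch in either list all overlapped a peak of the other day. Over the whole lists strong peaks were mostly shared too. In the top deciles by score, 622 of 4403 day 2 peaks and 3 of 1744 day 5 peaks had no partner. Besides the strongest site, 3 pairs were among the 10 of both lists. The site at 83402418 to 83405064 scored 997 at day 2, and its day 5 peak, 83402592 to 83404768, scored 681 and was 2177 bp wide, the widest day 5 peak of the stretch. The site at 97055926 to 97057809 scored 1029 at day 2 and 495 at day 5 (97056262 to 97057705). The third was the neighbour of the broad peak described above.

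Some sites of high score held unlike places in the lists. The day 5 peak at 90788963 to 90789734 scored 679, at place 13 of the day 5 list, and its day 2 partner at 90788849 to 90789932 scored 700, at place 632 of the day 2 list. A day 5 peak at 86534913 to 86535880 (score 375, place 129) likewise had a day 2 partner at place 2622 (86534798 to 86536311, score 421). By contrast, the day 2 peak at 86422756 to 86424631 scored 927 at place 230, while the better of its 2 day 5 peaks scored 139 at place 2286. Places in lists of unequal length are given side by side, and a change between the days was not tested.

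Broad day 2 peaks were more frequent in the stretch than in the whole list, as they were on chromosome 15. Widths of at least 2000 bp were found in 32 of its day 2 peaks (5.95%), where the background was 1.51% and the stretch of chromosome 15 from 71 to 91 Mb had 4.78%, and in 1 day 5 peak (0.304%, background 0.0172%). After the broad peak of 4729 bp, the widest were 81551809 to 81555341 (3533 bp, score 754), 86261028 to 86264500 (3473 bp, score 515), 94879364 to 94882706 (3343 bp, score 961) and 87503328 to 87506657 (3330 bp, score 664). Each of these 4 also held 3 separate day 5 peaks, with summed widths of 1648, 1475, 2446 and 1491 bp. In all, 40 of the 243 day 2 peaks with a day 5 peak held at least 2 (16.5%, background 11.3%), and 6 held at least 3 (2.47%, background 1.09%).

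The fullest locus spanned 86520298 to 86566407 and held 11 peaks of each day. It began with the second strongest day 2 peak of the stretch, 86520298 to 86522103 (score 1337), which held a pair of day 5 peaks, the better at 86521028 to 86521950 (score 361). An equally full locus, 90788849 to 90822706, had 12 day 2 peaks and 10 at day 5, all 10 of the latter shared (background 86.1%). There the day 2 peaks without a counterpart were weak, with scores of 62.7, 50.7, 73.6 and 72.0, whereas the other 8 scored from 139 to 700. The locus at 87235893 to 87285520 differed from it. It held 13 day 2 peaks and 7 day 5 peaks, and its 6 day 2 peaks without a counterpart reached a score of 178 (87253782 to 87255424), above 4 of the 7 peaks with one.

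The remaining full loci lay at 97502876 to 97547520 (10 day 2 and 8 day 5 peaks), 87320406 to 87381436 (9 and 7), 87489362 to 87522211 (9 and 7), 95342172 to 95374642 (8 and 5), 86261028 to 86280629 (6 and 4) and 86747066 to 86781949 (5 and 4). The locus near 97.5 Mb was made of weak day 5 peaks, none above a score of 98.7. Near 95.3 Mb no peak exceeded 159 at day 2 or 78.0 at day 5. Over the 10 fullest loci, 52 of 92 day 2 peaks and 66 of 74 day 5 peaks were shared. The shares over the whole stretch were 45.2% and 87.8%, and the backgrounds over the whole lists 30.4% and 86.1%. The loci were chosen by their peaks of both days, so these counts are not independent of that choice.

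In windows of 100 kb, the fullest at day 2 were 87200001 to 87300000 (17 day 2 and 8 day 5 peaks), 86700001 to 86800000 (15 and 16), 97500001 to 97600000 (14 and 12), 86500001 to 86600000 (13 and 13) and 87500001 to 87600000 (13 and 9). At day 5 the window from 86100001 to 86200000 (8 and 9) took the place of the first of these. Peaks occupied 131 of the 200 windows at day 2 and 103 at day 5, and no window held day 5 peaks alone. Day 5 had more peaks than day 2 in 13 of the 131 windows (9.92%), against 400 of 12332 windows (3.24%) over the whole lists.

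Peaks of day 2 alone numbered 295 (54.8%, background 69.6%). Their median score was 79 and their median width 688 bp, against 206 and 1098 bp for the day 2 peaks with a counterpart. The whole day 2 list had a like contrast, with 84.6 and 593 bp against 213 and 918 bp. The 295 peaks lay a median of 9369 bp from the nearest day 5 peak (quartiles 2822 to 31926 bp), and 15 were more than 100 kb from one. Within 10 kb of a day 5 peak were 156 of them (52.9%, against 34.8% of such peaks in the whole list). Within 1 kb were 31 (10.5%, against 7.41%). Among the members in the top decile of the day 2 list by score, 7 of 81 had no day 5 peak, where the background was 14.1%.

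The strongest day 2 peak without a counterpart spanned 81750042 to 81752254 (2213 bp, score 523, place 1483), with the nearest day 5 peak 17043 bp away. It was followed by 96702437 to 96704379 (score 467), 97958037 to 97959476 (score 449), 93352021 to 93353237 (score 443), 91316009 to 91317042 (score 362) and 93741397 to 93742967 (score 342). These differed in how isolated they were. The nearest day 5 peak was 329 bp from the one near 97.96 Mb and 459 bp from the one near 93.35 Mb, but 30895 bp from the one near 91.32 Mb and 82887 bp from the one near 93.74 Mb. One of the 10 strongest was the peak downstream of the strongest site, at 90037400. The remaining 3 were 88960884 to 88961927 (score 327), 93948168 to 93949751 (score 325) and 94425366 to 94426820 (score 314), at distances of 7490, 48195 and 1069 bp.

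Peaks of day 5 alone were much like those of the whole list in share and score. They numbered 40 (12.2%, background 13.9%), with a median score of 55.9 (57.1 over the whole list's day 5 peaks without a counterpart) and a highest score of 98.3, and none was in the top decile of the day 5 list. Of these, 31 (77.5%, against 61.7% of such peaks in the whole list) lay within 10 kb of a day 2 peak and 9 (22.5%, against 21.2%) within 1 kb, and none was farther than 30895 bp. The strongest spanned 94074915 to 94075678 (764 bp, score 98.3, place 4839), followed by 87452519 to 87452824 (score 86.5), 95462028 to 95462289 (score 83.6), 82130105 to 82131120 (score 82.9) and 89343131 to 89343571 (score 81.8). The fourth of these, 1016 bp wide, ended 41 bp before a weak day 2 peak (82131161 to 82131756, score 51.8) and so was not counted as shared. The others among the 10 strongest scored from 66.4 to 72.6.

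Peaks in the stretch were wide for their score. Their median width was 812 bp at day 2 (767 to 876) and 469 bp at day 5 (443 to 512), where the whole lists had 663 and 331 bp. Because strong peaks are wider, each width was divided by the median width of peaks of like score in the same list, using 50 score bins. The median of this ratio was 1.19 (1.15 to 1.25) at day 2 and 1.36 (1.31 to 1.42) at day 5. It was 0.956 and 0.949 in the rest of chromosome 8, 1.10 and 1.11 on chromosome 15 from 71 to 91 Mb, and 1 at both days on the other autosomes. Ratios above 1 were found in 69.9% of day 2 members and 82.7% of day 5 members. Over the whole lists these shares were 49.8% and 49.5%, and on chromosome 15 from 71 to 91 Mb 62.1% and 63.5%.

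Along the chromosome relative width was above 1 over most of the stretch and near 1 in the bins next to it. In the 4 bins of 5 Mb from 80 to 100 Mb the median ratio was 1.14 to 1.28 at day 2 and 1.29 to 1.43 at day 5. In the bin before them, 75 to 80 Mb, it was 1.02 and 0.944, and in the first bin with peaks after them, 105 to 110 Mb, it was 0.962 and 0.959. The bin from 75 to 80 Mb is partly within the stretch: 10 of its 49 day 2 peaks and 5 of its 16 day 5 peaks were members. By single megabases, the ratio was near 1 in the first 2 of the stretch (0.943 and 1.05 at day 2, 0.914 and 0.975 at day 5, on 5 to 21 peaks each). From 81 to 99 Mb it was above 1 in every megabase with peaks on both days, except 95 to 96 Mb at day 2 (0.944, on 13 peaks). The other bins with at least 10 peaks included that from 75 to 80 Mb. Their day 2 values ran from 0.870 to 1.19 over 22 bins, and the highest, 50 to 55 Mb, rested on 10 peaks. The day 5 values ran from 0.860 to 1.14 over 18 bins. Among autosomal windows of 20 Mb with at least 100 peaks, that from 80 to 100 Mb on chromosome 8 had the highest ratio at day 2 (1.20, of 122 windows) and at day 5 (1.36, of 79 windows). The next were on chromosome 15, from 20 Mb at day 2 (1.16) and from 40 Mb at day 5 (1.28), and the quartiles over the windows were 0.979 and 1.03 at day 2. Of the 8 windows with the highest ratios, 6 at day 2 and 5 at day 5 were on chromosome 15, so wide peaks for their score were not particular to the stretch. Width is read from the same peaks as the overlap that chose the stretch, so it is no independent measure.

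**Figure D4:**
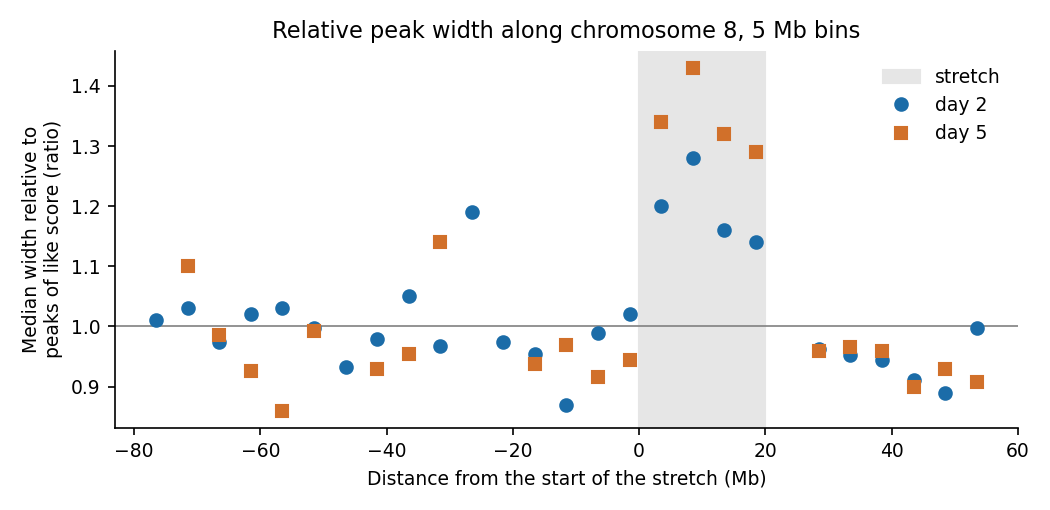
Median peak width relative to peaks of like score, in 5 Mb bins of chromosome 8 with at least 10 peaks, against distance from the start of the stretch (grey). The 4 bins in the grey band lie at 1.14 to 1.28 at day 2 and 1.29 to 1.43 at day 5, and the other bins at 0.870 to 1.19 and 0.860 to 1.14, where a day 2 bin of 10 peaks outside the band exceeds the lowest bin within it. The bin from 75 to 80 Mb, drawn outside the band at its midpoint, holds the first megabase of the stretch.

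Retention is also given by score, as a description: the overlap itself chose the stretch, so an excess over other regions was fixed by the choice. When the whole day 2 list was divided into 10 deciles of score, members had the higher share with a day 5 peak in each of them. The gap was widest in the third decile, where 31 of 42 members (73.8%) had a day 5 peak against 44.5% elsewhere, and in the fourth, with 30 of 52 (57.7%) against 31.9%. In the highest decile 91.4% of members (83.2 to 95.8) and 85.8% of other peaks had one. In the lowest, 2 of 28 members (7.14%) had one against 5.96% elsewhere. Applying the shares found elsewhere to the members' scores gave 182 peaks with a counterpart where 243 were counted. Applying the shares by decile of width gave 213. By width, members had the higher share in 9 of 10 deciles, and in the second had 52.6% against 54.2% elsewhere.

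**Figure D5:**
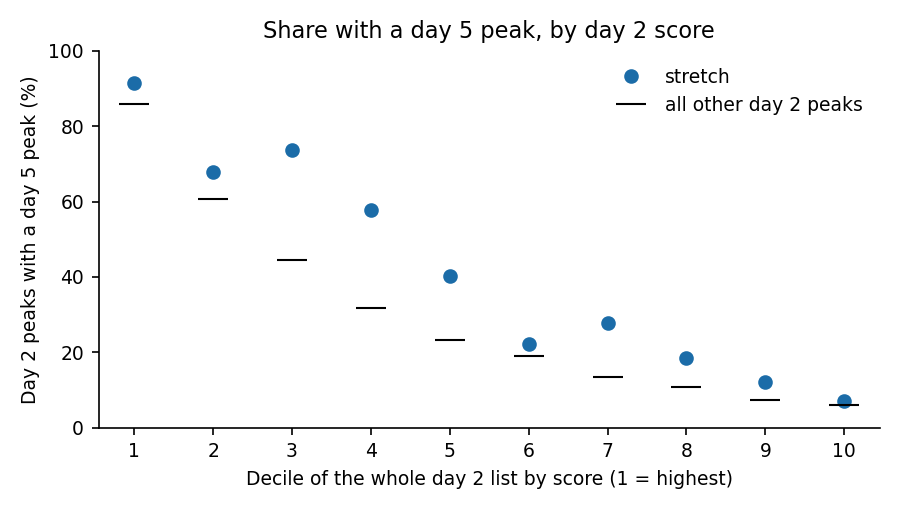
Share of day 2 peaks with a day 5 peak in each decile of the whole day 2 list by score (1 is the highest), for the stretch (points) and for all other peaks (dashes). The points run from 91.4% in the highest decile to 7.14% in the lowest, the dashes from 85.8% to 5.96%; the stretch was chosen by this overlap.

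At shared sites the median pair of peaks differed less in width than elsewhere, with overlapping quartiles. The lists formed 289 overlapping pairs in the stretch, and the day 5 peak was the narrower in 284 of them (98.3%, against 99.2% of all pairs). The width of the day 2 peak divided by that of its day 5 partner had a median of 2.21 (quartiles 1.57 to 3.48), against 2.75 (2.00 to 3.96) in the rest of chromosome 8, 2.47 on chromosome 15 from 71 to 91 Mb and 2.59 on the other autosomes. The day 2 peak enclosed the whole day 5 peak in 249 pairs (86.2%, against 88.4% of all pairs), and midpoints were a median of 158 bp apart, where all pairs had 123.5 bp. Day 2 peaks of the stretch together covered 539 kb and day 5 peaks 186 kb, a ratio of 2.91, against 3.97 on chromosome 15 from 71 to 91 Mb, 5.21 over the whole lists and 5.52 in the rest of the chromosome. Spearman's rho between the scores of a pair was 0.49 over the 289 pairs and 0.42 over all 15073 pairs, with 0.36 in the rest of the chromosome and 0.42 on chromosome 15 from 71 to 91 Mb. All pairs share the same 2 libraries.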

How the data were processed

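LSD1 ChIP-seq libraries of day 2 and day 5 were grouped by sample title. The authors deposited 1 peak list per LSD1 library, giving positions and the peak caller's score, whose scale is not given in the sources used here. Peaks were called with MACS in Galaxy, per the file headers. Bowtie2, deepTools and the mm9 build appear in the submitters' processing notes. The MACS version, cutoff and control and the read depth were likewise not given, and all of these affect peak number, width and score. Deposited starts, counted from 0, are printed counted from 1.

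Members were taken by midpoint. Overlap (at least 1 bp), loci (gaps of up to 10 kb), score ranks and width ratios were computed on the whole lists, with pandas 2.3.3, NumPy 2.4.6 and SciPy 1.17.1 under Python 3.11.15, and drawn with Matplotlib 3.10.9. Overlap counting was tested on simulated data. For loci only their spacing was checked there, and not their number. The rule for named loci took the 10 highest-scoring and 5 widest peaks of each list, the 10 fullest loci, the 5 fullest windows, the 10 strongest peaks of each single day, the 5 widest peaks with most partners, the longest intervals without peaks, and the surroundings of the broadest and the strongest peak. Members and rules were chosen with earlier results of these data known. The gene table at hand is of GRCm38.p6, so the planned gene and motif analyses were not run and no coordinates were converted. Alternatives covered score limit, overlap rule, list length, merging, borders and locus gap.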

Additional observations from a re-analysis of the deposited data

How the results depend on the processing

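Of 57 alternative values, 31 stayed within the interval of the value reported (counts within 1.5 times) and 26 moved. Limits by score used the median of each list. Above it, peaks numbered 291 at day 2 and 186 at day 5, with median widths of 1099 and 599 bp. With 50% of each peak required to overlap, 21.6% of day 2 members and 35.3% of day 5 members were shared, against 7.95% and 20.3% in the rest of chromosome 8 and 9.62% and 24.3% on the other autosomes. Counting peaks up to 1 kb apart as shared gave 50.9% at day 2, a looser rule for which other regions were not computed. Equal list lengths gave 74.9% at day 2 and 66.6% at day 5 and, computed after seeing the data, 54.0% and 66.2% in the rest of chromosome 8 and 56.2% and 65.5% on the other autosomes. Once neighbours closer than 1 kb were merged, the median widths were 915.5 and 564 bp. Joining loci at up to 5 kb gave 15 loci of day 5 alone, and at up to 20 kb 3, with 56 of day 2 alone. For peaks outside the stretch, the share with a day 5 peak was 30.2%, and 33.8% at the members' scores or 39.6% at their widths, the last chosen after seeing the data. Leaving out the 3 fullest megabases, also chosen after seeing the data, left 320 and 181 peaks, by construction, with 42.2% of day 2 members shared. The width ratio, an added measure, moved in none of its 10 alternatives (1.16 to 1.20 at day 2, 1.32 to 1.37 at day 5). Apart from fewer peaks entering by construction, the cause of the moves was not tested. The depth behind the peaks is unknown. No paired analysis was possible because each group had 1 library, and no replicate could be left out.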
